A study of Mus musculus with 24 samples.

Results

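The 10 genes described here join neutrophil products to the IL-6 and IL-1 acute-phase response: S100a8, S100a9, Csf3r, Lcn2, Serpina3n, Socs3, Cebpd, Cebpb, Il1r1 and Osmr. They were chosen by name from 28859 genes in the count table, and all 10 were among the 18060 genes that passed the filter on low counts. RNA came from the lateral septum, a mostly inhibitory forebrain nucleus, of male C57BL/6J mice aged 8 to 14 weeks. Stressed mice underwent chronic social defeat stress (CSDS), in which a CD-1 aggressor attacked them for 10 min per day, and age-matched controls were housed without defeat. Libraries fell into 8 groups of 3, control and CSDS on days 1, 4, 7 and 10, with no transgene in any group. The labels do not say whether each library was 1 animal, so p-values measure the spread between libraries.

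Neutrophils carry a store of S100a8 and S100a9 proteins in their cytosol and are mobilised from bone marrow by G-CSF acting on Csf3r. In the acute-phase response, cytokines of the IL-6 family act through gp130 and Stat3, and IL-1 acts through NF-kB. Socs3, Cebpb, Cebpd, Lcn2 and Serpina3n are among the genes that such signals induce. In brain these genes are known for their induction in endothelium, astrocytes and microglia during systemic or local inflammation.

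Libraries held 31182747 to 41205354 counts. Summed markers of lateral septum neurons ranged from 3017 to 4446 CPM (counts scaled to library size). Dissections also held neighbouring tissue in varying amounts: the choroid plexus transcript Ttr ranged from 5.01 to 8945 CPM and the cortical and hippocampal neuron transcript Slc17a7 from 15.9 to 524 CPM. In whole tissue, fewer cells of a type and less RNA per cell cannot be told apart.

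With edgeR's quasi-likelihood test and Benjamini-Hochberg adjustment over 18060 genes, 1 of the 10 genes changed with CSDS on any day. This was Csf3r, which fell on day 10. None of the 10 was called on day 1, when 0.00554% of all genes were, on day 4 (0.111% of all genes) or on day 7 (0.00554%). On day 10, 1 of 10 was called, against 0.166% of all genes. For the mean of the daily differences, 0 of 10 were called, against 0.116% of all genes. At an unadjusted p under 0.05, 2, 4, 3 and 2 of the 10 passed on days 1, 4, 7 and 10, and 4 passed for the mean, against 7.88%, 8.33%, 4.28%, 12.8% and 6.47% of all genes. DESeq2 also called 1 of the 10 on day 10 and 0 on days 1, 4 and 7 and for the mean. The median log2 fold change of the 10 genes was 0.06, 0.23, 0.24 and 0.01 on the 4 days, beside a median within 0.02 of 0 over all genes.

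**Figure D1:**
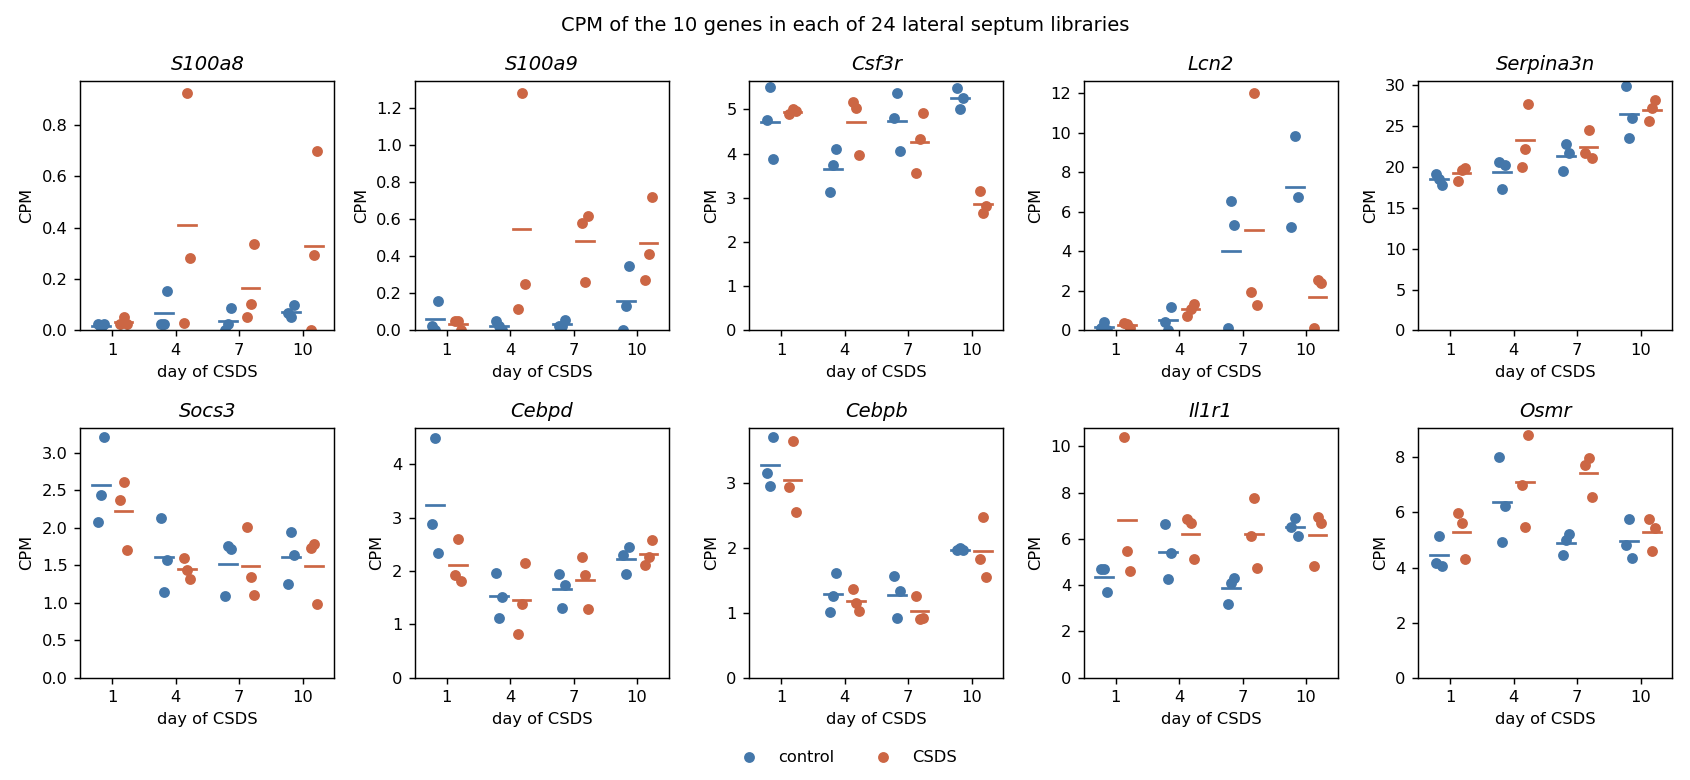
CPM (y axis, linear from 0) of each of the 10 genes by day (x axis), with 1 point per library, blue for control and orange for CSDS, and a line at the mean of each group of 3. On day 10 the 3 CSDS libraries of Csf3r lie at 2.65 to 3.15 CPM, below the 3 controls at 5.00 to 5.49.

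Per transcript length, Serpina3n was the most abundant at a mean of 9.93 FPKM, a level scaled by transcript length and library size, over the 24 libraries. Lcn2 followed at 2.94 FPKM. Cebpb (1.24), Osmr (1.05), Csf3r (0.950), Il1r1 (0.930), Cebpd (0.906) and Socs3 (0.641) lay close together on the same FPKM scale. S100a9 (0.433) and S100a8 (0.360) were lowest. Ranges over libraries overlapped between every pair of neighbours in this order. Serpina3n exceeded Lcn2 in 22 of 24 libraries, and Cebpd exceeded Socs3 in 20 of 24, whereas the other neighbours changed places in 7 to 12 libraries.

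Csf3r, the receptor for granulocyte colony-stimulating factor (G-CSF), is carried by neutrophils and microglia and was present at 2.65 to 5.50 CPM in the 24 libraries. On day 10, control libraries held 5.49, 5.00 and 5.26 CPM and CSDS libraries 3.15, 2.65 and 2.81 CPM. The groups did not overlap, and the 3 CSDS values were the lowest of all CSDS libraries. The log2 fold change was -0.87 (SE 0.16, adjusted p = 0.0266). The day 10 call was lost without control replicate 1 (adjusted p = 0.0787) or 2 (0.0526) and without CSDS replicate 1 (0.136), 2 (0.0710) or 3 (0.0947), at log2 fold changes of -0.94 to -0.84. It was also lost in a fit of the 6 day 10 libraries alone (log2 fold change -0.88, adjusted p = 0.356) and with choroid plexus and cortex scores as covariates (-0.94, adjusted p = 0.0576), and with the replicate number as a block (-0.87, adjusted p = 0.0501).

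Csf3r showed no such difference on earlier days. On day 1 control libraries held 4.76, 5.50 and 3.87 CPM and CSDS libraries 4.89, 5.01 and 4.96 CPM (log2 fold change 0.07). On day 4 the values were 3.13, 3.75 and 4.11 CPM in controls and 5.16, 5.02 and 3.96 CPM in CSDS (log2 fold change 0.37, SE 0.16, adjusted p = 0.544). On day 7 they were 4.80, 5.36 and 4.06 against 3.56, 4.32 and 4.91 CPM (-0.15, adjusted p = 0.999). These groups overlapped. The test that the CSDS response of Csf3r differed between days gave an adjusted p of 0.0795, with 0.0221% of all genes called and 0 of the 10, and DESeq2's likelihood ratio test gave 0.00125.

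Microglial markers had no call beside that of Csf3r on day 10. P2ry12, a purinergic receptor that marks microglia, held 19.3 to 22.6 CPM in controls and 24.0 to 26.2 CPM in CSDS (log2 fold change 0.22, adjusted p = 0.423). Of 14 microglial markers, 0 were called on day 10 and their median log2 fold change was -0.04. With a microglial score as a covariate, Csf3r stood at -0.87 (adjusted p = 0.0305). The ligand Csf3 reached at most 6 reads in a library and was at 0 in the median library. Among 14417 genes outside the set with a mean of at least 1 CPM, the profile of Csf3r over 24 libraries was most like that of Rbm28 (Pearson r = 0.84), Adat1 (0.80) and Srrt (0.77). Rbm28 also fell on day 10 (log2 fold change -0.48, SE 0.09, adjusted p = 0.0266), a call lost without day 10 control replicate 1 (adjusted p = 0.0787) or 2 (0.0748) or any 1 of the 3 day 10 CSDS libraries (0.0515 to 0.136). It was also lost with the replicate block (0.0501), with choroid plexus and cortex scores (0.0905) and in the fit of day 10 alone (0.356).

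**Figure D2:**
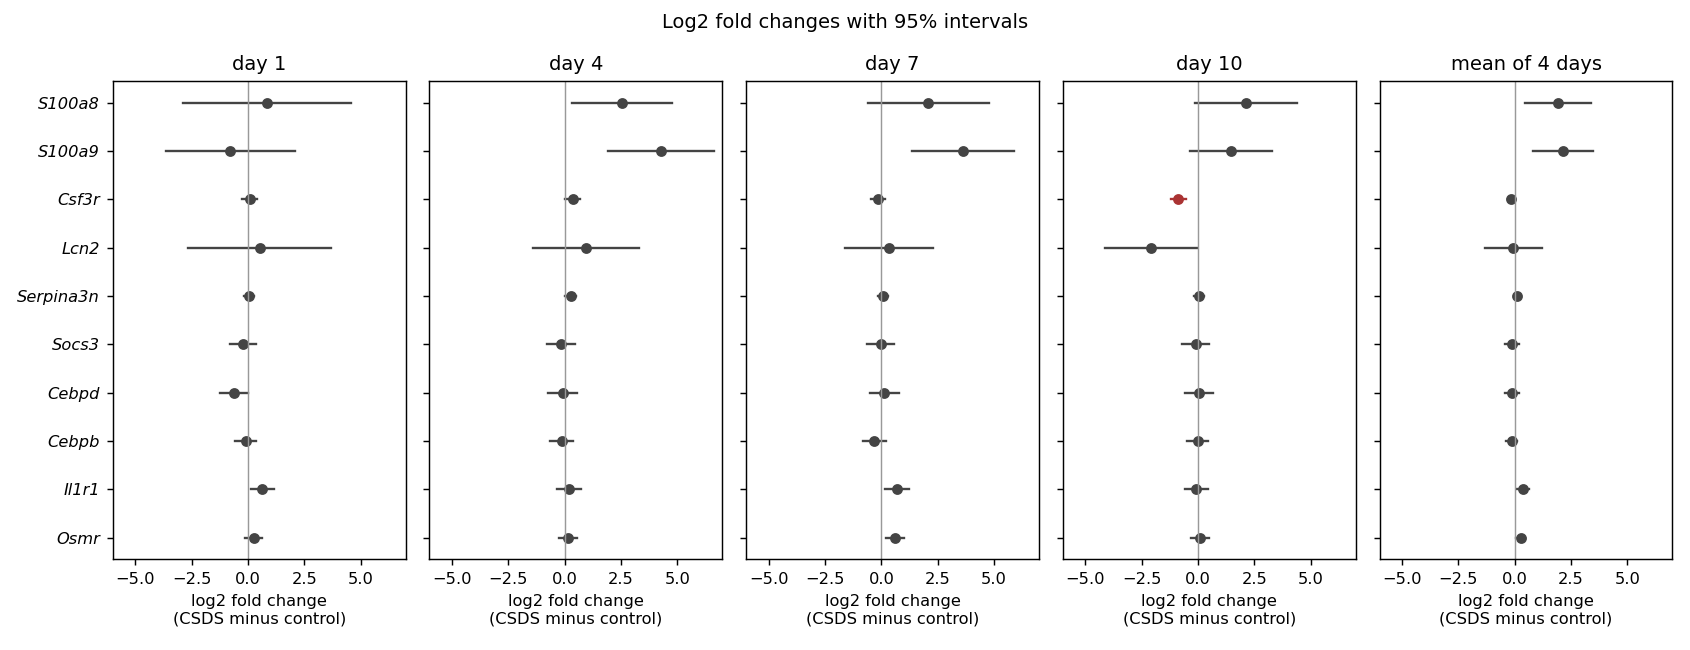
Log2 fold change, CSDS minus control (x axis), with its 95% interval for each of the 10 genes (y axis) on each day and for the mean of the 4 daily differences, from the edgeR fit of 24 libraries with 3 per group. Red marks an adjusted p under 0.05, reached by Csf3r on day 10, and the widest intervals belong to S100a8, S100a9 and Lcn2.

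S100a8 and S100a9, the calcium-binding subunits of calprotectin, were present in a few reads per library, so each value carries a large counting error. Over the 12 control libraries S100a9 summed to 33 reads and S100a8 to 22 reads, and over the 12 CSDS libraries to 177 and 108 reads. The ratio of these summed levels was 5.31 for S100a9 (exact 95% interval 3.65 to 7.95) and 4.86 for S100a8 (3.05 to 8.08). Day 10 control replicate 3 held 14 of the 33 control reads of S100a9, and without it the ratio was 8.40 (interval 5.22 to 14.3). Day 4 CSDS replicate 2 held 50 of the 177 CSDS reads of S100a9 and 36 of the 108 of S100a8. Without that library the ratios were 4.17 (interval 2.82 to 6.31) for S100a9 and 3.54 (2.17 to 6.00) for S100a8. These intervals cover counting error only and not the spread between libraries. The edgeR test across libraries called neither gene: the mean log2 fold change was 2.15 for S100a9 (SE 0.64, adjusted p = 0.359) and 1.90 for S100a8 (SE 0.70, adjusted p = 0.577). Fitted fold changes of genes at this level depend on the prior count.

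On day 4, S100a9 stood at 0.0505, 0.0264 and 0 CPM in controls and at 0.114, 1.28 and 0.250 CPM in CSDS. Every CSDS value lay above every control value, and CSDS replicate 2 was the highest of all libraries. The groups summed to 3 and 62 reads, a ratio of 22.7 (exact 95% interval 7.40 to 113), and the fitted log2 fold change was 4.27 (SE 1.13, adjusted p = 0.224). CSDS replicate 2 held 50 of the 62 reads, and without it the ratio was 6.94 (interval 1.87 to 38.3). When each library was left out in turn, the day 4 ratio ranged from 6.94 to 44.9, lowest without that library and highest without control replicate 1, and the fitted log2 fold change from 2.66 to 5.10. On day 7, controls held 0.0267, 0.0261 and 0.0572 CPM of S100a9 and CSDS libraries 0.580, 0.259 and 0.617 CPM (ratio 13.4, interval 4.96 to 51.0; log2 fold change 3.63, SE 1.10, adjusted p = 0.810). The groups again did not overlap. Over all genes, 11.6% did not overlap on day 1, 15.6% on day 4 and 9.83% on day 7, in either direction, and of the 10 genes 0, 1 and 3 did not. On day 10, S100a9 values of 0, 0.130 and 0.346 CPM in controls and 0.274, 0.414 and 0.723 CPM in CSDS overlapped (log2 fold change 1.48, adjusted p = 0.483; 0.97 to 2.66 when each library was left out). In CSDS libraries S100a9 differed between days (adjusted p = 0.0254), a call lost without day 1 CSDS replicate 1 (0.0747), 2 (0.0734) or 3 (0.114) and with a microglial score as a covariate (0.0503).

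On day 1 neither calprotectin gene stood apart. S100a9 summed to 7 reads in controls and 4 in CSDS, and S100a8 to 2 and 4 reads, too few for a fold. For S100a8 on day 4, controls held 0.0253, 0.0264 and 0.154 CPM and CSDS libraries 0.0285, 0.923 and 0.281 CPM, which overlapped (log2 fold change 2.55, SE 1.07, adjusted p = 0.535). When each library was left out in turn, this value ranged from 1.11 to 3.85 on the log2 scale. The day 4 groups summed to 8 and 46 reads of S100a8, a ratio of 6.31 (exact 95% interval 2.95 to 15.5). CSDS replicate 2 held 36 of the 46 reads, and without it the ratio was 2.17 (interval 0.770 to 6.32). On day 7 the values were 0, 0.0261 and 0.0858 against 0.0527, 0.104 and 0.334 CPM, and on day 10 they were 0.0677, 0.0518 and 0.0988 against 0, 0.292 and 0.697 CPM. S100a8 was not called on day 7 (log2 fold change 2.08, adjusted p = 0.999) or day 10 (2.13, adjusted p = 0.421), with values of 1.04 to 3.34 and 0.98 to 2.70 when each library was left out.

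Most other neutrophil transcripts in the table were also sparse. Of a list of 37 neutrophil genes besides the 10, 34 were in the table, 23 of these summed to under 100 reads over all libraries, and 11 passed the filter. Of the 11, 0 were called on any day or for the mean. Ngp, a secondary granule protein, summed to 7 reads in controls and 54 in CSDS. Retnlg summed to 3 and 26 reads, the lactoferrin gene Ltf to 3 and 23, the collagenase Mmp8 to 7 and 26, and Chil3 to 4 and 23. These 5 were singled out after their values were seen. Other members ran the other way, among them Fpr2, a formyl peptide receptor (52 reads in controls and 36 in CSDS), and the gelatinase Mmp9 (281 and 259). Of the 34 genes, 24 had the larger sum in CSDS, 9 in controls and 1 was equal. Without day 4 CSDS replicate 2 these counts were 16, 14 and 4, without day 10 CSDS replicate 3 they were 18, 16 and 0, and without both they were 13, 18 and 3. These sums were not scaled to the number of libraries, so leaving out CSDS libraries lowers the CSDS sums alone. The changed counts therefore cannot show how far the larger CSDS sums rest on those libraries. For some genes single libraries carried much of the CSDS sum. Day 10 CSDS replicate 3 held 20 of the 54 CSDS reads of Ngp and 14 of the 23 of Ltf. Day 4 CSDS replicate 2 held 13 of the 26 CSDS reads of Mmp8 and 11 of the 23 of Chil3. Elane, the elastase of primary granules, had 1 read in all, Camp 3 and 5, Cxcr2 3 and 10, and Mpo 45 and 44. The more abundant list members are shared with microglia or other brain cells, among them Itgam (7858 and 8194 reads) and Hdc (4446 and 4084). Lyz2 (2643 and 3379) and Hp (517 and 643) had larger sums in CSDS. Of those CSDS reads, day 10 CSDS replicate 2 held 464 for Lyz2 and 154 for Hp. Prtn3 (486 and 483) and Il1r2 (144 and 122) had smaller sums in CSDS.

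Haemoglobin transcripts were also higher in CSDS libraries on days 4 and 7, without passing the test on either day. Hbb-bs, a beta globin chain of red cells, held 0.227 to 3.34 CPM in day 4 controls and 3.49 to 13.3 CPM in day 4 CSDS, and 0.240 to 2.88 against 45.4 to 67.6 CPM on day 7. The 7 erythroid markers tested had a median log2 fold change of 2.60 on day 4 and 4.87 on day 7, with 0 called on either day. On day 10, Hbb-bs held 6.22, 14.4 and 20.2 CPM in controls, from lowest to highest, and 1.10, 4.52 and 89.9 CPM in CSDS, so that 2 of the 3 CSDS libraries lay below every control. Day 10 CSDS replicate 3, with the second largest sum of S100a8 and S100a9 reads (55), held 175 Hbb-bs reads, and day 4 CSDS replicate 2, with the largest (86), held 468. The next largest sums, 37, 29 and 24 reads, were those of day 7 CSDS replicate 3, day 10 CSDS replicate 2 and day 7 CSDS replicate 1. These libraries held 1926, 3697 and 2565 Hbb-bs reads. A shared source of S100 and haemoglobin reads was not tested. For the mean of the daily differences 1 erythroid marker was called, Hbb-bt, another beta globin chain (log2 fold change 2.98, adjusted p = 0.0374). With an erythroid score as a covariate, S100a9 stood at 4.58 on day 4 and 4.20 on day 7 on the log2 scale (adjusted p = 0.272 and 0.955). S100a9 was most like Vwf, the clotting factor carrier of endothelium, at r = 0.78 over 24 libraries, followed by Cxcl12 (0.71) and Slc6a6 (0.70), and S100a8 was also most like Vwf (0.66).

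**Figure D3:**
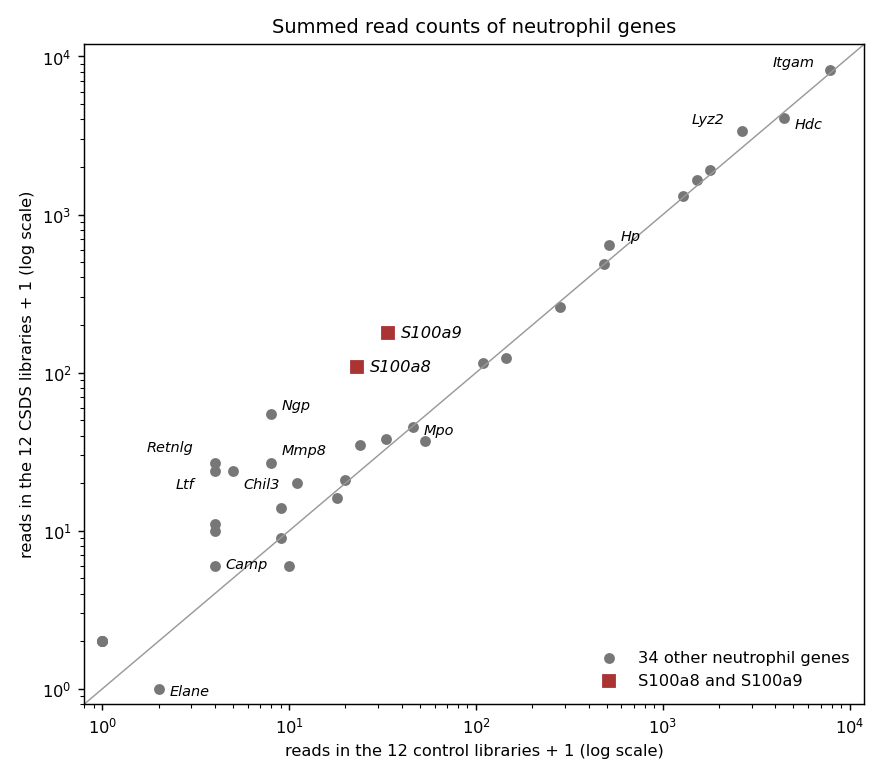
Reads summed over the 12 CSDS libraries (y axis) against reads summed over the 12 control libraries (x axis), both plus 1 on log scales, for S100a8 and S100a9 (red squares) and the 34 other neutrophil genes in the table (grey points), with a line of equal sums. S100a8 (22 and 108 reads) and S100a9 (33 and 177) lie above the line, while Itgam (7858 and 8194) lies on it.

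S100a8 and S100a9 lie on mouse chromosome 3 on opposite strands. Their levels were related over the 24 libraries (Pearson r = 0.70, permutation p = 0.00022, Spearman rho = 0.57, permutation p = 0.00436; adjusted over 45 pairs of the 10 genes, 0.00518 and 0.0327). The permutations for all 45 pairs shuffled the 24 libraries without regard to group. Differences between groups therefore enter these p-values, and correlations of residuals were not tested. Without the 2 libraries farthest from the median of S100a8, r was 0.52. Within groups, on residuals from the 8 group means, r was 0.53, and it was 0.74 over the 12 CSDS libraries and 0.21 over the 12 controls. Their start regions are shown because the pair moved together. Each runs from 250 bases before to 50 bases after the RefSeq start site, 5′ to 3′ on the gene's strand, in GRCm38.p6: chr3:90668821-90669120 on the plus strand for S100a8 and chr3:90695672-90695971 on the minus strand for S100a9. Capitals mark a match to the C/EBP half-palindrome TTGCNNAA, searched on both strands.
S100a8: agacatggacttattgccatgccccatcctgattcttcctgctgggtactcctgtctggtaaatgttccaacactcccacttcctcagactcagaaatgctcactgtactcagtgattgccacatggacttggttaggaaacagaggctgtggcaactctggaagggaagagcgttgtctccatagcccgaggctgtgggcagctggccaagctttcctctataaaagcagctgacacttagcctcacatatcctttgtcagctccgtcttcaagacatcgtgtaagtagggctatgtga
S100a9: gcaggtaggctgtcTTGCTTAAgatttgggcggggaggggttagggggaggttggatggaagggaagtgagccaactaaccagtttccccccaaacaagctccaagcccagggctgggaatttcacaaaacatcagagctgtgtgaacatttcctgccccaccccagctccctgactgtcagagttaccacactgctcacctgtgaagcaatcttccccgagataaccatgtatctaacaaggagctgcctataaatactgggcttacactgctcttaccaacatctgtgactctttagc
The S100a9 window held this match, starting at position -236 from the start site, and the S100a8 window held none. The same letters occurred in 10.8% of 32851 RefSeq windows of this length. A match describes letters and not binding.

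Lcn2, lipocalin 2, which binds the siderophores of bacteria, ranged from 0 to 12.0 CPM around a median of 1.14 CPM. On day 1 all 6 libraries lay at or under 0.449 CPM. On day 4, controls held 0.429, 0.0264 and 1.18 CPM and CSDS libraries 0.741, 1.10 and 1.34 CPM. On day 7 the values were 0.107, 6.54 and 5.35 in controls and 1.92, 12.0 and 1.29 CPM in CSDS, so the groups overlapped widely (log2 fold change 0.35, adjusted p = 0.999). Day 10 controls held 5.25, 9.82 and 6.77 CPM and CSDS libraries 0.137, 2.55 and 2.43 CPM. Every CSDS value was below every control value on day 10, where 15.6% of all genes and 2 of the 10 did not overlap (log2 fold change -2.09, SE 0.98, adjusted p = 0.385).

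Ttr was also lower in 2 of the 3 day 10 CSDS libraries. Day 10 controls held 8945, 6184 and 2733 CPM of Ttr, and CSDS libraries 37.5, 6297 and 23.6 CPM. With choroid plexus and cortex scores as covariates, the day 10 difference of Lcn2 was -1.17 on the log2 scale (adjusted p = 0.817). Whether choroid plexus content bears on the Lcn2 values was not tested. Lcn2 differed between days in both conditions (adjusted p = 0.00352 in controls and 0.0222 in CSDS). In controls, 40.7% of all genes and 4 of the 10 differed between days, and in CSDS 47.9% and 6 of the 10. Day of sampling and any handling that went with it cannot be told apart in these comparisons. The CSDS call for Lcn2 was lost without day 1 CSDS replicate 2 (adjusted p = 0.0516) or 3 (0.0613) or day 7 CSDS replicate 2 (0.197). It was also lost with the erythroid (0.255), microglial (0.0694) or choroid plexus and cortex scores (0.0565) as covariates, and with limma on log2(FPKM + 1) (0.0966) or log2(FPKM + 0.1) (0.132). Lcn2 was most like Ly6a, a surface antigen of brain endothelium, at r = 0.87 over 24 libraries.

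Serpina3n, a secreted serine protease inhibitor and a common marker of reactive astrocytes, ranged from 17.3 to 29.8 CPM. Controls held 19.1, 18.5 and 17.8 CPM on day 1 and 29.8, 23.5 and 25.9 CPM on day 10. CSDS libraries held 18.2, 19.6 and 19.9 CPM on day 1 and 25.6, 27.1 and 28.1 CPM on day 10. In each condition every day 10 library lay above every day 1 library, and Serpina3n differed between days (adjusted p = 0.00261 in controls and 0.00678 in CSDS). On day 4 the values were 20.5, 17.3 and 20.2 CPM in controls and 20.0, 22.1 and 27.6 CPM in CSDS, which overlapped (log2 fold change 0.26, SE 0.11, adjusted p = 0.511). On days 1, 7 and 10 its log2 fold changes were 0.06, 0.07 and 0.03. Close paralogs can share reads with Serpina3n, so its level is uncertain. The astrocyte filament Gfap ranged from 134 to 344 CPM and also differed between days (adjusted p = 9.64e-04 in controls and 0.00465 in CSDS), without a CSDS difference on day 10 past the test (-0.15, adjusted p = 0.704). Serpina3n was most like Sspn, sarcospan (r = 0.89).

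Lcn2 and Serpina3n were related over the 24 libraries (Pearson r = 0.68, permutation p = 0.00023, Spearman rho = 0.76, permutation p = 3e-05; adjusted over 45 pairs, 0.00518 and 0.00135). Without the 2 farthest libraries r was 0.59, and on residuals from the group means it was 0.50. Their start regions are shown as those of a pair of secreted acute-phase products that varied together, in GRCm38.p6 from RefSeq: chr2:32387690-32387989 on the minus strand for Lcn2 and chr12:104406458-104406757 on the plus strand for Serpina3n. Capitals mark TTGCNNAA (C/EBP) in Lcn2, and in Serpina3n an NF-kB motif followed by a glucocorticoid receptor palindrome.
Lcn2: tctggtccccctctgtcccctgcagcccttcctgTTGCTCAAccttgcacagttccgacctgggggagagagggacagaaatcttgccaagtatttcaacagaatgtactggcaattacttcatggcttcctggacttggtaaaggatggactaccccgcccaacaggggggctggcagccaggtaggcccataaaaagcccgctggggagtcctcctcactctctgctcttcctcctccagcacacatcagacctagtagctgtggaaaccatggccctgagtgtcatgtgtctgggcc
Serpina3n: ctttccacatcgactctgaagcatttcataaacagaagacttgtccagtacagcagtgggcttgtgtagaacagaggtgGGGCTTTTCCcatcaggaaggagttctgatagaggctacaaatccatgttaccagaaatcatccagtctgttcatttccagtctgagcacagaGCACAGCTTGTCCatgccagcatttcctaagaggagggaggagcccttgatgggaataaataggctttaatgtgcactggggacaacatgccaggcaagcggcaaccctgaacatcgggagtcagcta
The Lcn2 match starts at -216, and the Serpina3n matches at -171 and -78. On both strands, the NF-kB motif occurred in 1.63% and the glucocorticoid receptor palindrome in 0.475% of 32851 windows.

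**Figure D4:**
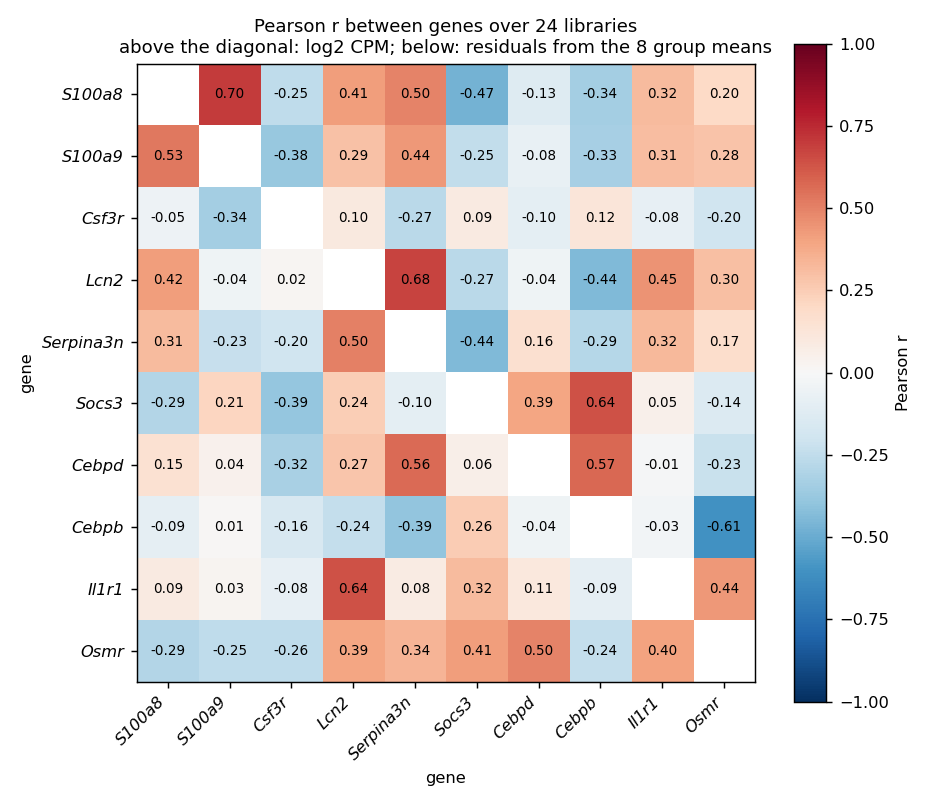
Pearson r between the 10 genes over 24 libraries, above the diagonal for log2 CPM and below it for residuals from the 8 group means, coloured from -1 (blue) to 1 (red). S100a8 with S100a9 (0.70 above, 0.53 below) and Lcn2 with Serpina3n (0.68 and 0.50) are positive on both sides of the diagonal, while Cebpd with Cebpb goes from 0.57 to -0.04.

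Cebpb and Cebpd encode leucine zipper transcription factors of the C/EBP family, and Socs3 encodes the feedback inhibitor of gp130 signalling. None was called with CSDS on any day. Cebpb held 3.16, 2.96 and 3.72 CPM in day 1 controls and 2.94, 3.66 and 2.56 CPM in day 1 CSDS. On days 4 and 7 its 12 libraries lay between 0.906 and 1.62 CPM, below all 6 day 1 libraries, and on day 10 they lay between 1.55 and 2.48 CPM. Cebpb differed between days in controls (adjusted p = 1.33e-04) and in CSDS (3.42e-05). Its CSDS log2 fold changes were -0.10, -0.13, -0.31 and -0.02 on the 4 days. Cebpb overlaps the antisense gene Tmem189 over 908 bases, and Cebpd overlaps Spidr over 1808 bases. The libraries kept strand, but the strand setting of the counting is not given in the sources used here, so both levels are uncertain.

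Cebpd on day 1 held 2.89, 4.49 and 2.35 CPM in controls and 1.92, 2.61 and 1.81 CPM in CSDS. The groups overlapped (log2 fold change -0.62, SE 0.30, adjusted p = 0.631). On later days the log2 fold changes of Cebpd were -0.08, 0.13 and 0.06. Cebpd differed between days in controls (adjusted p = 0.0193), a call lost without day 1 control replicate 2 (0.170) or with the microglial score as a covariate (0.400), and was not called between days in CSDS (0.255).

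Socs3 held 2.08, 2.43 and 3.21 CPM in day 1 controls and 2.37, 2.61 and 1.71 CPM in day 1 CSDS. In the other 18 libraries it lay between 0.981 and 2.12 CPM. Its CSDS log2 fold changes were -0.21, -0.15, -0.03 and -0.11, and the 95% interval of the day 1 value was -0.79 to 0.38. Socs3 was not called between days (adjusted p = 0.0864 in controls and 0.175 in CSDS) and was most like Gadd45b, a stress-induced gene (r = 0.81). The Socs3 start region is shown because its palindrome is the letter pattern of Stat3 binding. It lies at chr11:117969317-117969616 on the minus strand of GRCm38.p6 (RefSeq), with TTCNNNGAA in capitals.
Socs3: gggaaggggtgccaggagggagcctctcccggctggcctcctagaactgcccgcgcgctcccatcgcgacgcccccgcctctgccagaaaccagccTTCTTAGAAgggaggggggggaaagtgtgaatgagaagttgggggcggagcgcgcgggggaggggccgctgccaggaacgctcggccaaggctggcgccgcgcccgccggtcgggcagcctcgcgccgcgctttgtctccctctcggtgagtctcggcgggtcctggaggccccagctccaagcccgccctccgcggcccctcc
The match starts at -154, and TTCNNNGAA occurred in 8.3% of 32851 windows. Of the 10 genes, 9 had a window in the RefSeq table. Windows of S100a8, Csf3r and Cebpb held none of the letters searched, which included TGANTCA for AP-1 (7.81% of windows), found in Osmr at position 4. Il1r1 held TTGCNNAA at -133 in 1 of its 2 windows, and the other held no match.

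Osmr, which pairs with gp130 to form the receptor for oncostatin M, ranged from 4.06 to 8.83 CPM. On day 7, controls held 4.45, 4.99 and 5.21 CPM and CSDS libraries 7.72, 7.98 and 6.56 CPM. The groups did not overlap (log2 fold change 0.60, SE 0.19, adjusted p = 0.833). On days 1, 4 and 10 the groups overlapped, with log2 fold changes of 0.25, 0.15 and 0.08, and the mean of the daily differences was 0.27 (SE 0.09, adjusted p = 0.525). In CSDS libraries Osmr differed between days (adjusted p = 0.0454). That call was lost in 11 of 24 leave-one-out fits, at adjusted p of 0.0523 to 0.0800: without day 1 CSDS replicates 2 or 3, day 4 control replicate 3 or CSDS replicates 1 or 3, day 7 control replicate 3 or CSDS replicates 1 or 2, or any day 10 CSDS library. It was also lost with the replicate block (adjusted p = 0.0579), with the microglial score (0.185) and with limma on log2(FPKM + 1) (0.0530) or log2(FPKM + 0.1) (0.0615).

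Il1r1, the signalling receptor for IL-1, ranged from 3.17 to 10.4 CPM. On day 7, controls held 3.17, 4.10 and 4.29 CPM and CSDS libraries 6.12, 7.77 and 4.76 CPM. These groups did not overlap (log2 fold change 0.69, SE 0.25, adjusted p = 0.999). On day 1, controls held 4.71, 4.71 and 3.69 CPM and CSDS libraries 10.4, 5.47 and 4.60 CPM, which overlapped (0.65, SE 0.25, adjusted p = 0.592). The library at 10.4 CPM, day 1 CSDS replicate 1, also held 7639 CPM of Ttr, against 9.15 to 438 CPM in the other day 1 libraries. With choroid plexus and cortex scores as covariates, the Il1r1 difference was 0.34 on day 1 and 0.42 on day 7. A link between neighbouring tissue and the Il1r1 differences was not tested. The mean of the daily differences was 0.36 (SE 0.12, adjusted p = 0.521). A non-coding gene model on the same strand, Gm38070, overlaps Il1r1 over 6480 bases, so its counts are uncertain too. The closest profiles were those of Map3k15 for Il1r1 (r = 0.82) and Nup62cl for Osmr (0.76).

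Ligands of these receptors were near the limit of detection. Il6 reached at most 3 reads in a library, Osm 9 and Il1b 8. The acute-phase gene Saa3 reached 5 reads. Lif, another gp130 ligand, held 0.257 to 1.37 CPM and was not called on any day. The shared subunit Il6st (gp130) held 98.6 to 162 CPM and Stat3 51.3 to 70.8 CPM. On day 10, Stat3 held 66.7 to 68.3 CPM in controls and 58.7 to 61.6 CPM in CSDS, a difference that did not pass (log2 fold change -0.16, SE 0.06, adjusted p = 0.298).

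Of 19 tested genes of IL-6 family ligands, receptors and kinases, 0 were called in any CSDS comparison. Of 34 tested targets of IL-6 and the acute phase besides the 10 genes, 1 was called on day 4 and for the mean, and 0 on days 1, 7 and 10. This was Lrg1, a secreted leucine-rich glycoprotein, which held 0.0528 to 0.128 CPM in day 4 controls and 1.51 to 1.84 CPM in day 4 CSDS. It rose on day 4 (log2 fold change 4.08, adjusted p = 0.00273) and for the mean (2.17, SE 0.25, adjusted p = 1.34e-04). Of 32 tested genes of the IL-1 and toll-like receptor pathway, 7 of the SOCS family, 4 of the C/EBP family and 9 of the S100 family, 0 were called in any CSDS comparison. The G-CSF and granulopoiesis list had 8 tested genes. Of these Cxcl12, the chemokine that holds neutrophils in bone marrow, rose on day 4 (0.54, SE 0.08, adjusted p = 0.00684) and for the mean (0.24, adjusted p = 0.0123). The day 4 call of Cxcl12 was lost without day 4 control replicate 3 (adjusted p = 0.0637) or day 4 CSDS replicate 2 (0.0617). With the erythroid score as a covariate its calls were lost on day 4 (log2 fold change 0.50, adjusted p = 0.0655) and for the mean (0.21, adjusted p = 0.308). Of 28 tested reactive astrocyte genes, Hspb1, a small heat shock protein, fell on day 4 (-1.26, adjusted p = 0.0186) and day 10 (-1.89, adjusted p = 0.00101) and for the mean (-0.78, adjusted p = 0.00254), and the rest were not called. The day 4 call of Hspb1 was lost without day 4 control replicate 1 (adjusted p = 0.167) or 3 (0.132) or day 4 CSDS replicate 1 (0.187) or 2 (0.183). With the erythroid score the calls of Hspb1 were lost on day 4 (log2 fold change -1.35, adjusted p = 0.0655) and for the mean (-0.86, adjusted p = 0.0573). In fits of 1 day alone its calls were lost on day 4 (-1.25, adjusted p = 0.199) and day 10 (-1.90, adjusted p = 0.241). Of 24 glucocorticoid-responsive genes, 0 were called. Fkbp5, a co-chaperone of the glucocorticoid receptor, stood at 0.40 on day 1 (SE 0.10, adjusted p = 0.323).

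Among all 45 pairs of the 10 genes, 5 correlations (4 positive) passed an adjusted p of 0.05 in permutations that ignored the 8 groups. Besides the pairs above these were Socs3 with Cebpb (r = 0.64, residual r = 0.26), Cebpb with Osmr (-0.61, residual -0.24) and Cebpd with Cebpb (0.57, residual -0.04). In these 3 pairs most of the relation lay between the 8 groups. The plot of pairwise correlations sets the pooled and residual values side by side.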

How the data were processed

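Total RNA from lateral septum was enriched for poly(A) RNA and sequenced as directional 150 bp paired-end libraries, per the labels' protocols. The submitters' processing notes name fastp, HISAT2, HTSeq and build GRCm39, and the authors deposited read counts and FPKM per gene. Values were used as deposited, with no sample pooled. CPM were computed with edgeR 4.0.16 TMM scaling (R 4.3.3). After filterByExpr, 1 quasi-likelihood fit used all 24 libraries with 8 group means, so groups share a spread estimate, and p-values were adjusted over all tested genes. Log2 CPM for correlations used a prior count of 2. Intervals were 95%. Alternatives were RLE scaling, DESeq2 1.42.0, other filters, limma 3.58.1 on log2(FPKM + 1) and log2(FPKM + 0.1), marker scores or replicate number as covariates, single-day fits and leaving out each library. The microglial covariate, and leaving libraries out of summed reads, were added after seeing the data. Scripts were tested on simulated data. Genes named are the 10 genes, up to 4 called genes per list by smallest p, fixed markers and the closest profiles by Pearson r. The genes and lists were chosen with earlier results of these data known. Promoters came from RefSeq on GRCm38.p6, and no coordinates were converted. Same-numbered libraries were not paired: 2 of 12 correlations of their deviations exceeded 0.1.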

Additional observations from a re-analysis of the deposited data

How the results depend on the processing

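Alternatives left the number of the 10 genes called on days 1, 4 and 7 and for the mean at 0. On day 10 the count of 1 fell to 0 with the replicate block, with choroid plexus and cortex scores as covariates and in a fit of the day 10 libraries alone, and ranged from 0 to 1 when each library was left out. With the replicate block Csf3r stood at -0.87 (adjusted p = 0.0501). The block moved no other count of calls among the 10 genes by over 1.5 times, and the numbers give no pairing. Over all genes, calls on day 10 went from 30 to 9 with the block, 3 with choroid plexus and cortex scores, 0 in the fit of that day alone and 135 with DESeq2. On day 4 they went from 20 to 8 with the erythroid score or in the fit of that day alone, 36 with choroid plexus and cortex scores and 72 with DESeq2. For the mean they went from 21 to 5 with the erythroid score, 12 with the microglial score and 57 with DESeq2. On days 1 and 7, with 1 call each, alternatives gave 0 to 18 and 0 to 9. A response that differed between days was called for 4 genes, and for 2 (block) to 202 (DESeq2) under alternatives. Between-day calls in controls went from 7353 to 4811 with the microglial score. With each library left out, calls ranged from 0 to 6, 3 to 23, 0 to 5 and 1 to 45 on the 4 days, 12 to 26 for the mean and 1 to 20 for a response that differed between days. DESeq2 called 1 gene, Csf3r, for a response that differed between days, against 0 in the edgeR fit. The 6 genes called between days in CSDS libraries became 3 (Cebpb, Csf3r and Serpina3n) with the microglial score as a covariate and ranged from 3 to 6 when each library was left out. In controls they ranged from 3 to 5. Leaving out 1 library also added calls. In controls, Csf3r was called without day 1 (adjusted p = 0.0457) or day 7 (0.0440) control replicate 3, and Socs3 without day 4 control replicate 1 (0.0498). Also in controls, Il1r1 was called without day 1 CSDS replicate 1 (0.0190) or 3 (0.0499), and Osmr without day 4 control replicate 2 (0.0358). In CSDS, S100a8 was called without day 4 (0.0296) or day 10 (0.0280) CSDS replicate 1. The causes were not tested.

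None of the log2 fold changes that changed sign passed the test. With choroid plexus and cortex scores as covariates these were, on day 1, S100a8 (-0.33), Lcn2 (-1.06), Serpina3n (-0.033) and Cebpb (0.14), on day 7 Lcn2 (-1.34), Serpina3n (-0.025) and Socs3 (0.025), and on day 10 Il1r1 (0.24). With the microglial score they were Cebpb on day 1 (0.14) and Socs3 on day 7 (0.032). With the erythroid score they were Cebpd on day 4 (0.12) and for the mean (0.043) and Lcn2 on day 7 (-0.67). With limma on log2(FPKM + 0.1), Lcn2 had a mean of 0.060. When each library was left out, the following log2 fold changes crossed 0: on day 1 S100a9 (-1.33 to 1.20), Csf3r (-0.044 to 0.20), Lcn2 (-0.045 to 2.29) and Cebpb (-0.24 to 0.015); on day 4 Socs3 (-0.35 to 0.099), Cebpd (-0.47 to 0.20), Cebpb (-0.28 to 0.057) and Osmr (-0.038 to 0.35); on day 7 Lcn2 (-1.33 to 0.89), Socs3 (-0.31 to 0.14) and Cebpd (-0.060 to 0.33); on day 10 Serpina3n (-0.045 to 0.12), Socs3 (-0.28 to 0.093), Cebpd (-0.052 to 0.12), Cebpb (-0.25 to 0.10), Il1r1 (-0.20 to 0.069) and Osmr (-0.027 to 0.21); and for the mean Lcn2 (-0.49 to 0.38). The correlation of Cebpd with Cebpb, which had passed at r = 0.57, became -0.041 on residuals from the group means. Depth limited S100a8 and S100a9 most, at no more than 50 reads per library.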
